A study of Homo sapiens with 36 samples.

Results

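The core of the ATF4-CHOP integrated stress response was followed as 10 named genes, ATF4, ATF5, DDIT3 (which encodes CHOP), ATF3, NUPR1, TRIB3, PPP1R15A, CHAC1, INHBE, and ASNS, in RNA-seq of cisplatin-resistant human embryonal carcinoma cells. Their rows were found by gene symbol and NCBI GeneID, and all 10 were listed in each of the 3 expression tables, which held 16431, 17035, and 16459 genes. The members were chosen by name with earlier results from these data known. The values that entered the choice were not recorded, so the differences between GSK-J4 libraries and control libraries were taken as the ones used, and they are given as a description without a test.

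Cells counter amino acid shortage, heme shortage, viral RNA, and misfolded protein in the endoplasmic reticulum through kinases that phosphorylate the translation factor eIF2. Most translation then slows, while the mRNA for the transcription factor ATF4 is translated more, so that much of the control of ATF4 lies outside its mRNA level. ATF4 induces genes for amino acid supply and a further set of transcription factors, among them CHOP, and prolonged activity of this pathway is known to favor cell death.

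The experiments used single clones of 2 lines. NT2/D1-A4 and 2102EP-C1 are cisplatin-resistant clones of the lines NT2/D1 and 2102EP, and each line is therefore represented by 1 clone. In the GSK-J4 experiments, cells of each clone were left as controls, received cisplatin at 0.5 µM for 6 h, were kept for 3 days in GSK-J4 at 1 µM, or had GSK-J4 followed by cisplatin (combination). GSK-J4 is a small molecule inhibitor of KDM6A and KDM6B, the demethylases that remove methyl groups from lysine 27 of histone H3. In the knockdown experiment, 2102EP-C1 cells carried either pLKO.1, an empty lentiviral vector, or hairpins against both KDM6A and KDM6B (sh6A+6B), with or without 0.5 µM cisplatin for 6 h. RNA was taken 24 h after cisplatin. There were 4 arms per experiment and 3 libraries per arm, described as biological triplicates.

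Among the transcription factors, ATF4 (GeneID 468, chr22:39520559-39522686 in GRCh38.p14) is the hub of the response, and ATF5 (GeneID 22809, chr19:49928906-49933935) is its close relative with a role in the mitochondrial stress response. DDIT3 (GeneID 1649, chr12:57516588-57520517) encodes CHOP, the factor tied to death after prolonged stress, and ATF3 (GeneID 467, chr1:212565407-212620777) encodes a stress-induced factor of the same basic leucine zipper class. NUPR1 (GeneID 26471, chr16:28532708-28538974) encodes a small stress-induced chromatin protein. Among the regulators that act back on the pathway, TRIB3 (GeneID 57761, chr20:380760-397559) encodes a pseudokinase that binds ATF4 and CHOP, and PPP1R15A (GeneID 23645, chr19:48872421-48876058) encodes GADD34, the subunit that directs a phosphatase to eIF2 and so ends the response. Among the effectors, CHAC1 (GeneID 79094, chr15:40953471-40956512) encodes an enzyme that degrades glutathione, INHBE (GeneID 83729, chr12:57455307-57458025) encodes a subunit of activin E, and ASNS (GeneID 440, chr7:97851677-97928441) encodes asparagine synthetase.

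Because members moved together in cells given GSK-J4, their promoters were searched for the sites that ATF4 and related factors are known to bind. RefSeq promoter windows, each from 250 bases before to 50 bases after an annotated start in GRCh38.p14, were at hand for 8 of the 10 genes (16 windows). The windows of NUPR1 and INHBE were not used here. The C/EBP-ATF element, spelled TGATGNAA and searched on both strands, was found in the windows of 3 of the 8 genes (ATF3, ASNS, and CHAC1), and 4.46% of all 27305 genes had a window that held it. The cyclic AMP response element TGACGTCA, which reads the same on both strands and cannot coincide with a full C/EBP-ATF match, was found in PPP1R15A and in the windows of 2.25% of all genes. Genes differ in their number of windows. Counted by window, 3 of the 16 held the C/EBP-ATF element, against 3.62% of all 35116 windows. For the cyclic AMP response element it was 1 of the 16, against 1.85%. The sequences around these matches are given with up to 50 bases on each side and the match in capitals, and a match is a description of letters, not evidence of binding.
ASNS, chr7:97872419-97872526, minus strand, match at 68 to 61 bases before the start: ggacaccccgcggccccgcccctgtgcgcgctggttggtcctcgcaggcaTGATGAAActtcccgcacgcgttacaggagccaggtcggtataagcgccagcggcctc
ATF3, chr1:212565166-212565273, plus strand, match at 191 to 184 bases before the start: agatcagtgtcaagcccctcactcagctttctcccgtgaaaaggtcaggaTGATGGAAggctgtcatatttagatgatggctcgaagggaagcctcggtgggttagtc
CHAC1, chr15:40953221-40953319, plus strand, match on the opposite strand at 209 to 202 bases before the start: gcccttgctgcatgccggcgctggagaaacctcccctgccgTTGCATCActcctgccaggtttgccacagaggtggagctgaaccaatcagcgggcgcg
PPP1R15A, chr19:48872313-48872420, plus strand, match at 58 to 51 bases before the start: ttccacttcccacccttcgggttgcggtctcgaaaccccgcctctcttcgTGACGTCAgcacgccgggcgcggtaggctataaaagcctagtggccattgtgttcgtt

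Median depth was 35.26 M reads per library in NT2/D1-A4 (26.84 to 49.52), 37.24 M in 2102EP-C1 with GSK-J4 (30.25 to 53.65), and 88.4 M in the knockdown experiment (79.38 to 100.9). Values are log2 CPM (read counts scaled to a common library size) as deposited, and differences between groups are on that log2 scale, which carries a prior count of 3 reads and so understates the change of genes with few reads. All 10 embryonal carcinoma markers examined, among them POU5F1, NANOG, and SOX2, were measured in each table, while SOX17, GATA6, CDX2, and the leukocyte marker PTPRC were listed in none. The rows of some members overlap other annotated genes, and the strand setting of the count was not given in the sources used here. ASNS overlaps the readthrough gene CZ1P-ASNS, which none of the tables listed, and had 3 to 68 reads per library in the GSK-J4 experiments, so its counts are uncertain. DDIT3 shares its locus with LOC128125814 and the end of MARS1, ATF5 with the ends of NUP62 and IL4I1, and INHBE with LOC124902947.

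**Figure D1:**
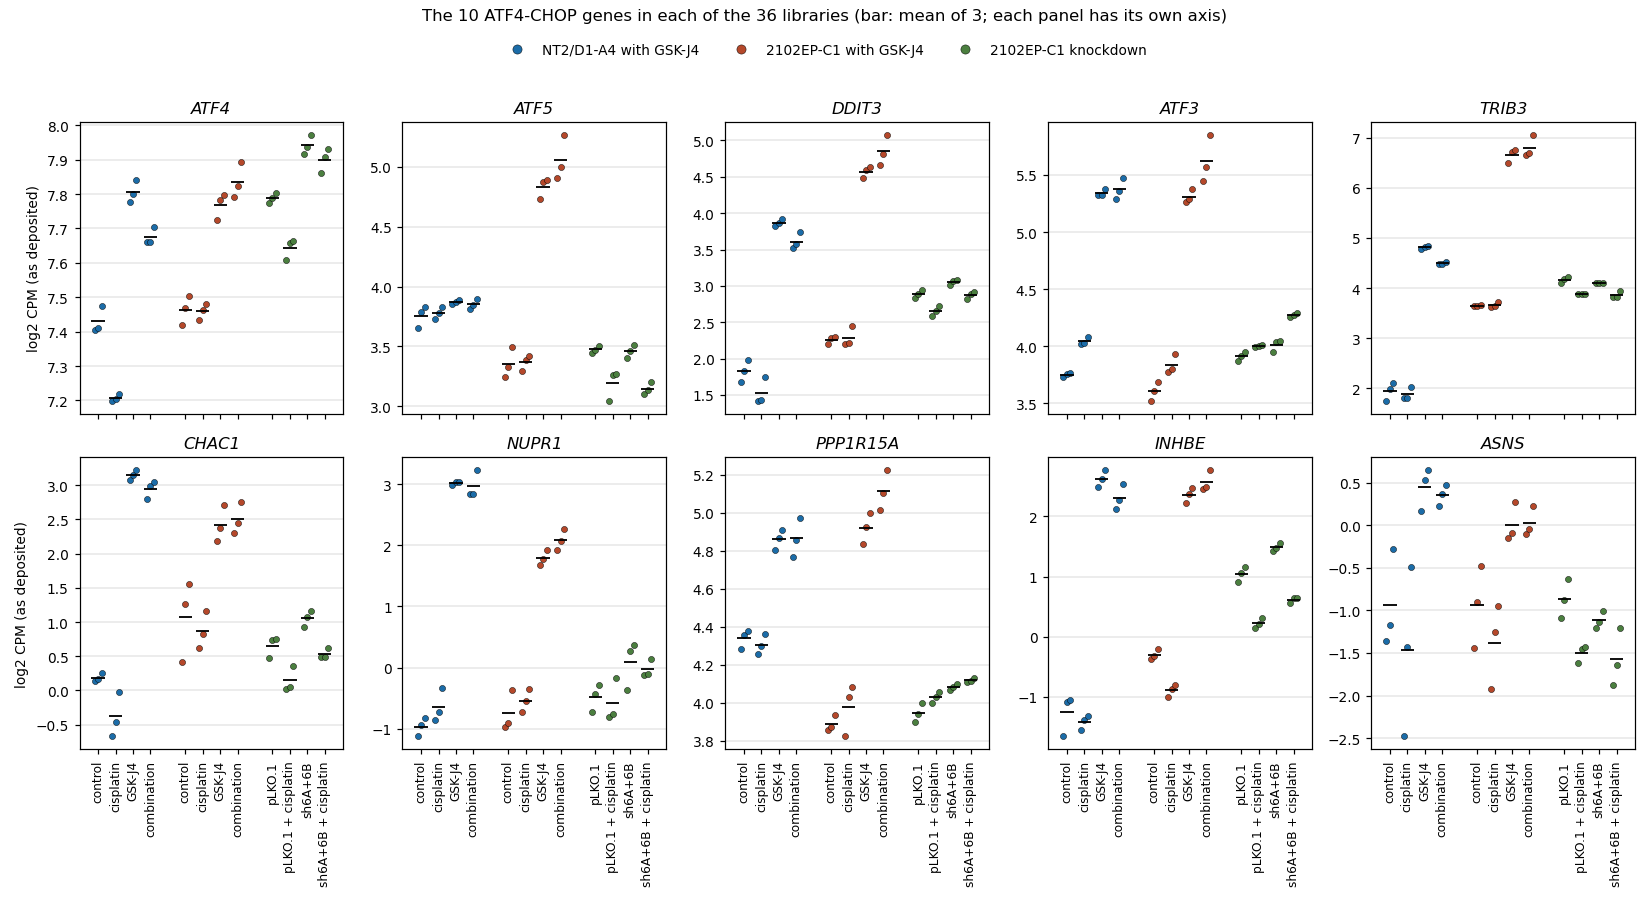
Each panel plots 1 member, with log2 CPM on the vertical axis, the 12 arms along the horizontal axis, a point for each of 3 libraries, and a bar at their mean. NUPR1 and INHBE sat below 0 in all control and cisplatin libraries of both GSK-J4 experiments and between 1.69 and 3.23 in all libraries given GSK-J4, and the ATF5 differences with GSK-J4 under cisplatin were 1.69 in 2102EP-C1 (red) and 0.07 in NT2/D1-A4 (blue).

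The first question was whether the members were higher in cells given GSK-J4 when both groups also received cisplatin. The 6 libraries of this comparison in each line are not in the comparison of GSK-J4 with control, although they belong to the same experiments and to the results known when the genes were chosen. In NT2/D1-A4, 9 of the 10 members rose with the combination relative to cisplatin (limma, fold over 1.3 and adjusted p under 0.05), and ATF5 did not. By the same rule, 12.8% of all genes rose and 7.84% fell. The groups did not overlap for 9 members, as for 25.8% of all genes in this direction. The median difference of the members was 1.95, against 0.0055 for all genes. In 2102EP-C1, 9 of 10 rose, ATF4 was the exception, and 10.5% of all genes rose and 8.82% fell. All 10 were higher with no overlap between the groups, as were 30.3% of all genes. The median difference there was 1.74, against -6e-04 for all genes. These counts may include members that were in a table only through its GSK-J4 arms. The authors kept genes over 0.5 CPM in 2 or more samples. Taken here as reads over the library total, and without the GSK-J4 and combination libraries, INHBE passed in 0 libraries of NT2/D1-A4 and ASNS in 1 library of 2102EP-C1. How CPM was computed for the filter is not given in the sources used here, and a prior count would raise low values. ASNS lay near the limit, so it may have been listed without GSK-J4. Of the 9 members that reached the filter without GSK-J4 by the count used here, 8 rose in NT2/D1-A4 and 8 in 2102EP-C1, with medians of 1.82 and 1.79, where 11.7% and 10% of all genes that reached it rose.

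Among the transcription factors, ATF5 passed the limits in 2102EP-C1 and did not pass in NT2/D1-A4. In NT2/D1-A4, ATF5 was at 3.73, 3.83, and 3.78 log2 CPM in the cisplatin libraries and at 3.82, 3.85, and 3.89 in the combination libraries. These ranges overlapped, and the difference of 0.07 (95% interval -0.05 to 0.20) did not pass the test (limma adjusted p = 0.33). In 2102EP-C1, ATF5 was at 3.39, 3.42, and 3.29 with cisplatin and at 5.27, 5.0033, and 4.91 with the combination, with every combination library above every cisplatin library. The difference was 1.69 ± 0.08 (SE, n = 3 per group), or 3.23-fold (limma adjusted p = 1.1e-15). The tables of the lines were normalized separately, so the difference between the lines was not tested.

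ATF4 mRNA itself had small differences in both lines. In NT2/D1-A4 the cisplatin libraries were at 7.20, 7.22, and 7.20 and the combination libraries at 7.66, 7.66, and 7.70, a rise of 1.38-fold (0.47 ± 0.03, SE, limma adjusted p = 1.8e-09). In 2102EP-C1 the values were 7.46, 7.48, and 7.43 against 7.89, 7.79, and 7.82. The groups did not overlap, yet the difference of 0.38 ± 0.03 (SE, n = 3 per group, limma adjusted p = 8.2e-10) came to 1.298-fold, just under the fold limit of 1.3. Without replicate 2 of the cisplatin libraries, or replicate 2 or 3 of the combination libraries, ATF4 passed the limit, at 0.39, 0.40, and 0.38.

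DDIT3, the gene for CHOP, rose in both lines. Its cisplatin libraries in NT2/D1-A4 were at 1.42, 1.44, and 1.74 log2 CPM (80 to 119 reads), and its combination libraries at 3.52, 3.58, and 3.74 (355 to 453 reads). All combination libraries were far above the others, by 4.22-fold on average (2.08 ± 0.10, SE, limma adjusted p = 7.6e-12). In 2102EP-C1, DDIT3 went from 2.21, 2.45, and 2.20 to 5.07, 4.81, and 4.66, which was 5.90-fold (2.56 ± 0.09, SE, limma adjusted p = 3.1e-18). ATF3 rose by 1.33 ± 0.05 in NT2/D1-A4 (2.51-fold, limma adjusted p = 2.5e-13) and by 1.79 ± 0.07 in 2102EP-C1 (3.45-fold, limma adjusted p = 7.9e-17), where ± gives the SE with n = 3 per group.

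NUPR1 was near the bottom of the measured range without GSK-J4 and well above it with the inhibitor. In NT2/D1-A4 it had 17 to 22 reads in the cisplatin libraries (-0.33, -0.73, and -0.87 log2 CPM) and 189 to 356 reads in the combination libraries (2.85, 3.23, and 2.84). The groups were far apart, by 12.25-fold on the deposited scale (3.61 ± 0.15, SE, n = 3 per group, limma adjusted p = 1.1e-12). In 2102EP-C1 it went from -0.35, -0.72, and -0.56 to 2.28, 1.92, and 2.06, which was 6.19-fold (2.63 ± 0.18, SE, limma adjusted p = 3.4e-12).

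Both genes that act back on the pathway rose, TRIB3 by more than PPP1R15A. TRIB3 in NT2/D1-A4 was at 1.81, 1.80, and 2.03 with cisplatin and at 4.49, 4.52, and 4.48 with the combination (6.12-fold; 2.61 ± 0.09, SE, limma adjusted p = 2.5e-14). In 2102EP-C1 it went from 3.73, 3.62, and 3.65 to 7.05, 6.70, and 6.65 (8.78-fold; 3.13 ± 0.07, SE, limma adjusted p = 7.4e-22). The groups were separated in both lines by more than 2 log2 units at their nearest libraries. PPP1R15A, the eIF2 phosphatase subunit, rose by 0.56 ± 0.06 in NT2/D1-A4 (1.47-fold, limma adjusted p = 1.9e-07) and by 1.14 ± 0.06 in 2102EP-C1 (2.20-fold, limma adjusted p = 1.1e-13), with ± as the SE.

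Among the effectors, CHAC1 and INHBE had the largest differences in NT2/D1-A4 beside NUPR1. CHAC1 was at -0.45, -0.67, and -0.02 log2 CPM with cisplatin (19 to 33 reads) and at 2.99, 3.04, and 2.80 with the combination (184 to 311 reads). Combination libraries were thus higher by 9.99-fold (3.32 ± 0.14, SE, limma adjusted p = 1.0e-12), and in 2102EP-C1 by 3.10-fold (1.63 ± 0.20, SE, limma adjusted p = 1.6e-07). INHBE had 8 to 11 reads with cisplatin and 114 to 219 reads with the combination in NT2/D1-A4, and 16 to 18 against 219 to 238 reads in 2102EP-C1. On the deposited scale the difference was 3.73 in NT2/D1-A4. It is given without a test since, by the count used here, INHBE reached the filter there only through the GSK-J4 arms. In 2102EP-C1 it was a rise of 11.06-fold (3.47 ± 0.15, SE, limma adjusted p = 2.3e-16).

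ASNS, the classical amino acid response gene, was also higher, from few reads. It had 3, 10, and 23 reads in the cisplatin libraries and 48, 46, and 29 in the combination libraries of NT2/D1-A4, and the difference was 1.82 ± 0.36 (SE, limma adjusted p = 4.3e-04). In 2102EP-C1 it had 13, 7, and 16 reads against 30, 36, and 43 (a difference of 1.40). This is given without a test since, by the count used here, ASNS reached the filter there only through the GSK-J4 arms. The groups did not overlap in either line, although the cisplatin libraries of NT2/D1-A4 spanned from -2.48 to -0.49 log2 CPM.

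**Figure D2:**
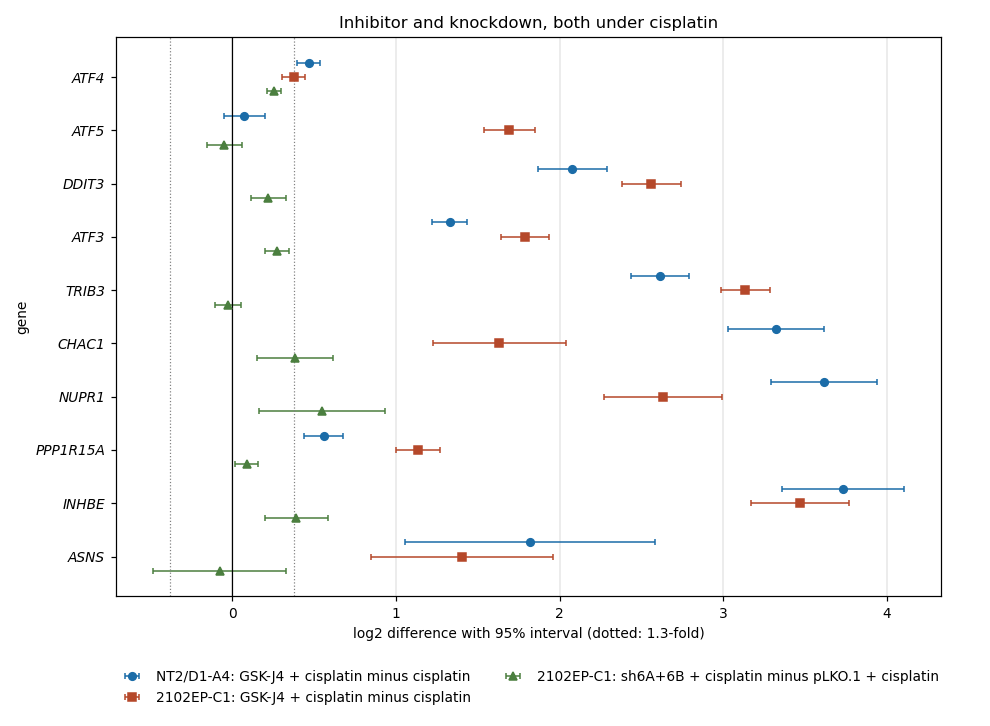
The horizontal axis gives the log2 difference of each member (vertical axis) with its 95% interval under cisplatin, for GSK-J4 in NT2/D1-A4 (circles), GSK-J4 in 2102EP-C1 (squares), and sh6A+6B in 2102EP-C1 (triangles), with n = 3 libraries per group and dotted lines at 1.3-fold. Triangles reach at most 0.55 (NUPR1), while squares lie above 1 for every member but ATF4.

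Without cisplatin, GSK-J4 gave differences of similar size, given here as a description since this comparison was taken as the one that chose the members. In NT2/D1-A4 the differences from control ran from 0.11 (ATF5) to 3.99 (NUPR1), with 8 of 10 past 1.3-fold. There, 13.8% of all genes rose by the rule of fold and adjusted p, which is stricter than this count by fold alone. In 2102EP-C1 the differences ran from 0.30 (ATF4) to 3.00 (TRIB3), with 9 of 10 past 1.3-fold, and by the stricter rule 7.79% of all genes rose. DDIT3 control libraries were at 1.83, 1.98, and 1.68 in NT2/D1-A4 and its GSK-J4 libraries at 3.92, 3.86, and 3.83. In 2102EP-C1 these were 2.20, 2.30, and 2.28 against 4.63, 4.60, and 4.48. Adding cisplatin to GSK-J4 moved no member by more than 0.32 in NT2/D1-A4, where TRIB3 fell from a mean of 4.82 to 4.49, or by more than 0.31 in 2102EP-C1, where ATF3 went from 5.31 to 5.62. By direction alone, 8 of the 10 members were lower in NT2/D1-A4 and all 10 were higher in 2102EP-C1. Their medians were -0.11 and 0.21, against 0.0016 and 0.0066 for all genes, given without a test.

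Cisplatin alone, 24 h after the pulse, raised none of the members past the limits in any of the 4 settings without GSK-J4, and where a member was called it was lower. In NT2/D1-A4, 1 of 10 members fell, in a table where 0.396% of all genes fell and 2.05% rose. In 2102EP-C1 of the GSK-J4 experiment, 1 of 10 fell, where 0.188% of all genes fell and 0.881% rose. These comparisons share their control libraries with the comparison taken as the one that chose the members. In 2102EP-C1 with pLKO.1, which shares none, 3 of 10 fell, where 0.462% of all genes fell and 2.53% rose, and with sh6A+6B 2 of 10 fell, where 1.04% of all genes fell and 2.48% rose. At an unadjusted p under 0.05, limma gave 4, 2, 9, and 7 members in these 4 settings in either direction, against 24.7%, 16.7%, 44.4%, and 51% of all genes.

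INHBE fell with cisplatin in each 2102EP-C1 setting without GSK-J4. It had 25, 31, and 37 reads in the control libraries (-0.32, -0.21, and -0.37 log2 CPM) and 18, 16, and 18 in the cisplatin libraries (-0.87, -0.9989, and -0.81) of the GSK-J4 experiment, and the ranges did not overlap. The difference of -0.59 ± 0.15 (SE, n = 3 per group, limma adjusted p = 0.018) was no longer past the threshold without control replicate 1 or 2 or cisplatin replicate 2 (adjusted p = 0.053, 0.081, and 0.085), with voom (0.19), or with only the compared groups fitted (0.092). With pLKO.1, INHBE went from 1.15, 0.91, and 1.06 to 0.30, 0.15, and 0.22 (-0.82 ± 0.09, SE, limma adjusted p = 2.5e-07). With sh6A+6B it went from 1.48, 1.55, and 1.42 to 0.64, 0.56, and 0.64 (-0.87 ± 0.09, SE, limma adjusted p = 4.6e-08). In NT2/D1-A4 the ranges overlapped and the difference was -0.16 (95% interval -0.53 to 0.22, limma adjusted p = 0.65).

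CHAC1, the glutathione-degrading enzyme, was the member that fell with cisplatin in NT2/D1-A4. It went from 0.14, 0.16, and 0.25 log2 CPM to -0.45, -0.67, and -0.02 (-0.56 ± 0.14, SE, n = 3 per group, limma adjusted p = 0.017), on 19 to 44 reads per library. The call was lost without control replicate 3 or cisplatin replicate 1 or 2 (adjusted p = 0.058, 0.054, and 0.086), with voom (0.12), and with only the compared groups fitted (0.082). Without cisplatin replicate 3, DDIT3 passed the limits too, at -0.40 (adjusted p = 0.024). CHAC1 also fell with pLKO.1 (-0.51 ± 0.11, SE, limma adjusted p = 9.7e-04) and with sh6A+6B (-0.52 ± 0.11, SE, limma adjusted p = 4.9e-04), and was at -0.21 (95% interval -0.62 to 0.20) in 2102EP-C1 of the GSK-J4 experiment.

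ASNS was the remaining member called lower with cisplatin, in pLKO.1 cells, where it went from 46, 54, and 42 reads to 29, 34, and 24 (-0.64 ± 0.20, SE, limma adjusted p = 0.013). Without pLKO.1 replicate 2 its adjusted p was 0.077, and with sh6A+6B its difference was -0.46 (95% interval -0.86 to -0.06, limma adjusted p = 0.060). ATF3 was the member with differences above 0 in all 4 settings, with values of 0.29, 0.23, 0.09, and 0.26 in NT2/D1-A4, 2102EP-C1, pLKO.1, and sh6A+6B cells, all under the fold limit. DDIT3 was at -0.30, 0.03, -0.23, and -0.17 in the same order, and TRIB3 at -0.07, 0.02, -0.28, and -0.24, also under the limit.

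**Figure D3:**
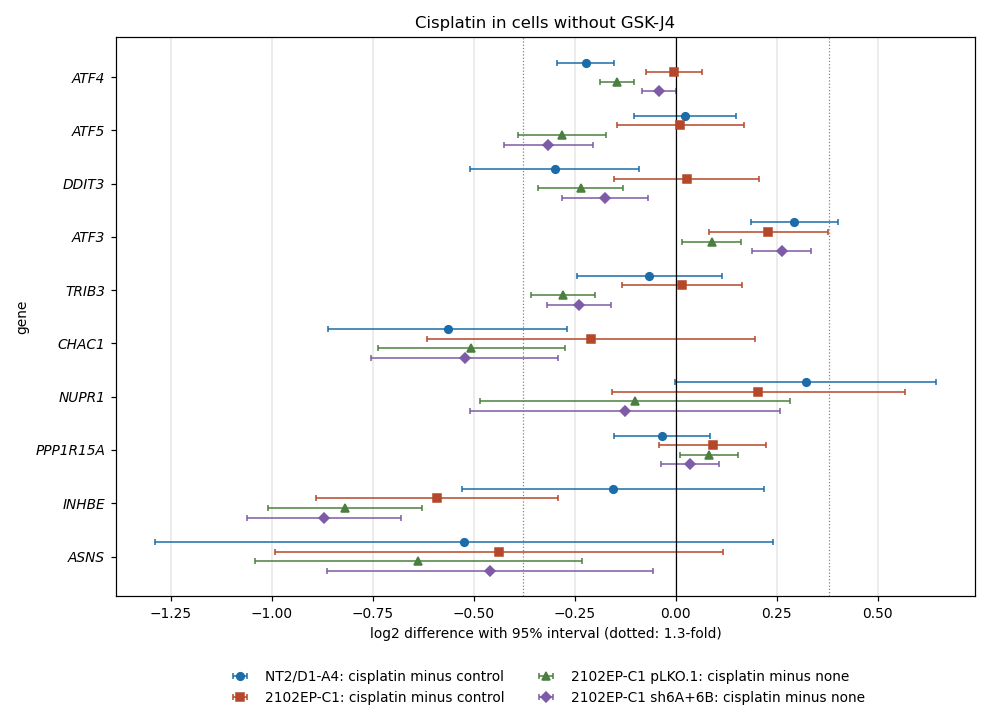
The horizontal axis gives the log2 difference between cisplatin and no cisplatin for each member (vertical axis), with 95% intervals, in NT2/D1-A4 (circles), 2102EP-C1 (squares), and 2102EP-C1 with pLKO.1 (triangles) or sh6A+6B (diamonds), with n = 3 libraries per group and dotted lines at 1.3-fold. INHBE with pLKO.1 and sh6A+6B lies lowest, at -0.82 and -0.87, and ATF3 is above 0 in all 4 settings.

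The knockdown experiment asked the same of 2102EP-C1 cells with less KDM6A and KDM6B mRNA in place of the inhibitor. KDM6A was at 7.16, 7.17, and 7.15 log2 CPM in the pLKO.1 libraries and at 6.14, 6.09, and 6.20 in the sh6A+6B libraries, and KDM6B was at 4.61, 4.66, and 4.63 against 3.51, 3.61, and 3.75. Each target was thus lower in all libraries labeled sh6A+6B, by 2.02-fold for KDM6A (-1.01 ± 0.03, SE, limma adjusted p = 2.1e-18) and 2.01-fold for KDM6B (-1.01 ± 0.05, SE, limma adjusted p = 1.8e-14). Under cisplatin the differences were -0.96 for KDM6A and -1.24 for KDM6B. With GSK-J4 under cisplatin, in contrast, KDM6B mRNA was higher by 0.92 ± 0.06 in NT2/D1-A4 (limma adjusted p = 8.2e-10) and 0.73 ± 0.07 in 2102EP-C1 (limma adjusted p = 8.7e-10), with ± as the SE.

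Knockdown raised 3 of the 10 members, NUPR1, INHBE, and CHAC1, and lowered none, in a table where 6.34% of all genes rose and 5.74% fell. The sh6A+6B libraries were above the pLKO.1 libraries with no overlap for 6 members, as for 28.3% of all genes. The median difference of the members was 0.14, against -0.0047 for all genes. Under cisplatin the 3 members that rose were again NUPR1, INHBE, and CHAC1, where 6.4% of all genes rose and 8.77% fell, and the median was 0.24, against 5e-04 for all genes. These 2 comparisons share no library. All 3 genes had few reads, at 62 to 247 per library in the sh6A+6B libraries.

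INHBE was at 1.15, 0.91, and 1.06 log2 CPM in pLKO.1 cells and at 1.48, 1.55, and 1.42 in sh6A+6B cells (1.36-fold; 0.44 ± 0.09, SE, n = 3 per group, limma adjusted p = 2.9e-04). CHAC1 was at 0.48, 0.74, and 0.75 against 0.93, 1.16, and 1.08 (1.32-fold; 0.40 ± 0.11, SE, limma adjusted p = 4.2e-03). NUPR1 was at -0.28, -0.74, and -0.43 against 0.37, 0.27, and -0.36 (1.49-fold; 0.58 ± 0.19, SE, limma adjusted p = 0.012). The groups of INHBE and CHAC1 did not overlap, while the lowest sh6A+6B library of NUPR1 lay within the pLKO.1 range. Each of these calls was lost without some single library. NUPR1 was not called without pLKO.1 replicate 2 or sh6A+6B replicate 1 or 2 (adjusted p = 0.075, 0.070, and 0.055). CHAC1 fell under the fold limit without pLKO.1 replicate 1 (0.31) or sh6A+6B replicate 2 (0.35), and INHBE lay at the limit without pLKO.1 replicate 2 (0.38).

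Under cisplatin, knockdown gave 0.55 ± 0.19 for NUPR1 (limma adjusted p = 0.013), 0.39 ± 0.09 for INHBE (limma adjusted p = 7.4e-04), and 0.39 ± 0.11 for CHAC1 (limma adjusted p = 4.7e-03), with ± as the SE. All sh6A+6B libraries were above all pLKO.1 libraries for these 3 genes and for 7 members in all, as for 32.7% of all genes. The count of 3 fell to 1 without pLKO.1 cisplatin replicate 1 and to 0 without replicate 2. ATF4 was higher by 0.26 (limma adjusted p = 1.2e-10) and ATF3 by 0.27 (limma adjusted p = 3.8e-07), both under the fold limit. TRIB3 was at -0.03 (95% interval -0.10 to 0.05), ATF5 at -0.05 (95% interval -0.16 to 0.06), and DDIT3 at 0.22 (95% interval 0.12 to 0.33), so the upper bound for DDIT3 was 0.33 where GSK-J4 under cisplatin gave 2.56 in the same clone. These values come from separately normalized tables and were not tested against each other.

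The difference that knockdown made to the response to cisplatin was under the fold limit for every member. In the test of the interaction, 0 of 10 members were called by limma, where 1.09% of all genes were called higher and 2.67% lower, and 2 were at an unadjusted p under 0.05, as were 43.1% of all genes. These 2 were ATF4, at 0.10 (95% interval 0.04 to 0.16, limma adjusted p = 0.0061), and ATF3, at 0.17 (95% interval 0.07 to 0.28, limma adjusted p = 0.0086), which passed the limit on the adjusted p and not that on the fold. The count was also 0 with voom. INHBE, which fell most with cisplatin, had an interaction of -0.05 (95% interval -0.32 to 0.22).

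Other genes around the pathway were followed in 6 lists written from general knowledge, with earlier results of these data known. Their counts are therefore a description and not an outside check on the members. Of the 32 measured genes described as further ATF4 or CHOP targets, 25 rose and 0 fell with GSK-J4 under cisplatin in NT2/D1-A4, and 26 of 34 rose and 0 fell in 2102EP-C1, where 12.8% and 10.5% of all genes rose. At an unadjusted p under 0.05, limma gave 29 and 32 of them in either direction, against 54.2% and 54.9% of all genes. By the count used here, FGF21 reached the filter in 2102EP-C1 only through the GSK-J4 arms, and without it 25 of 33 rose. Their median differences were 1.09 and 0.81. PCK2, the mitochondrial enzyme that makes phosphoenolpyruvate, rose by 3.29 in NT2/D1-A4 (limma adjusted p = 9.2e-16) and 2.12 in 2102EP-C1 (limma adjusted p = 3.6e-16). ALDH1L2, an enzyme of mitochondrial folate metabolism, rose by 3.00 and 1.85, GDF15, a secreted stress cytokine, by 2.58 and 1.98, and the glycine transporter gene SLC6A9 by 2.86 and 1.39. Those not called in NT2/D1-A4 were BCL2L11, ALDH18A1, ERO1A, MAP1LC3B, KLHL24, SQSTM1, and SLC38A2, at -0.10 to 0.35.

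Of the 9 basic leucine zipper genes whose proteins pair with ATF4 or CHOP, 4 rose and 0 fell in each line, in tables where 12.8% and 10.5% of all genes rose. CEBPB was higher by 1.24 and 1.70, CEBPG by 0.84 and 1.46, JDP2 by 1.35 and 1.02, and NFE2L2, which encodes the antioxidant regulator NRF2, by 0.46 and 0.45 in NT2/D1-A4 and 2102EP-C1. Upstream of ATF4, of the 10 genes for eIF2 kinases and their regulators, 1 rose in each line, which is near the share of all genes. In NT2/D1-A4 it was EIF2AK3 (which encodes PERK, the kinase of the endoplasmic reticulum), at 0.43 there and 0.07 in 2102EP-C1. In 2102EP-C1 it was EIF2AK2 (PKR, the kinase that senses double-stranded RNA), at 0.39 there and 0.05 in NT2/D1-A4. Of the 12 genes for eIF2, eIF2B, and the eIF2 phosphatase, limma called 0 in either line, and 8 in NT2/D1-A4 and 8 in 2102EP-C1 were at an unadjusted p under 0.05, as were 54.2% and 54.9% of all genes.

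The other branches of the unfolded protein response showed no common direction. Of the 19 genes of the ATF6 and IRE1-XBP1 branches, 5 rose and 1 fell in NT2/D1-A4, and 3 rose and 5 fell in 2102EP-C1, with medians of -0.13 and -0.21. Of all genes, 12.8% and 10.5% rose and 7.84% and 8.82% fell in NT2/D1-A4 and 2102EP-C1. HERPUD1, which serves the removal of misfolded proteins, rose by 0.89 and 0.42, and ERN1, which encodes IRE1, by 0.43 and 0.39. The chaperone cofactor gene SDF2L1 fell by 0.70 and 0.96. The others called were XBP1, EDEM1, and DNAJB9 higher in NT2/D1-A4 (0.49, 0.47, and 0.46), ATF6 higher in 2102EP-C1 (0.44), and SEC24D, MANF, CRELD2, and CALR lower in 2102EP-C1 (-0.63, -0.50, -0.43, and -0.41). Of 8 mitochondrial chaperone and protease genes, AFG3L2 fell in NT2/D1-A4 (-0.42) and HSPE1 in 2102EP-C1 (-0.49).

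In the knockdown experiment few genes of these lists were called. Of 33 measured further targets, 2 rose with sh6A+6B and 0 fell, in a table where 6.34% of all genes rose and 5.74% fell. They were TNFRSF10B, a death receptor gene, and DDIT4, which encodes an inhibitor of mTORC1, at 0.40 and 0.38. Under cisplatin DDIT4 alone rose, by 0.40, and 0 fell, where 6.4% of all genes rose and 8.77% fell. These counts are not above the shares of all genes. PCK2, which rose most with GSK-J4 among these genes in NT2/D1-A4, was at -0.34 in both knockdown comparisons. No basic leucine zipper partner and no gene of eIF2 or eIF2B was called by limma, while 6 of 9 and 9 of 12 were at an unadjusted p under 0.05 without cisplatin and 6 and 6 with it, against 57.7% and 65.1% of all genes. MANF fell by 0.39 with sh6A+6B, and under cisplatin DNAJB9 rose by 0.41, OMA1, a mitochondrial protease gene, by 0.48, and GCN1, an activator of the kinase GCN2, fell by 0.38.

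Few of the further targets were called with cisplatin alone, and GDF15 was the one that rose in each setting without GSK-J4. GDF15, which is also known as a p53 target, rose by 0.97 in NT2/D1-A4, 0.71 in 2102EP-C1, 0.60 with pLKO.1, and 0.76 with sh6A+6B. Of all genes, 2.05%, 0.881%, 2.53%, and 2.48% rose and 0.396%, 0.188%, 0.462%, and 1.04% fell, in the same order. In NT2/D1-A4 the p53 target BBC3 rose too (0.53), and no gene of this list fell there or in 2102EP-C1 of the GSK-J4 experiment. PCK2 and PYCR1, a proline synthesis gene, fell in pLKO.1 cells (-0.66 and -0.49). In sh6A+6B cells 5 of the 33 fell, PCK2 (-0.66), SLC7A11 (-0.52), SLC7A1 (-0.50), ALDH1L2 (-0.50), and SLC6A9 (-0.49), of which SLC7A11, SLC7A1, and SLC6A9 encode amino acid transporters.

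**Figure D4:**
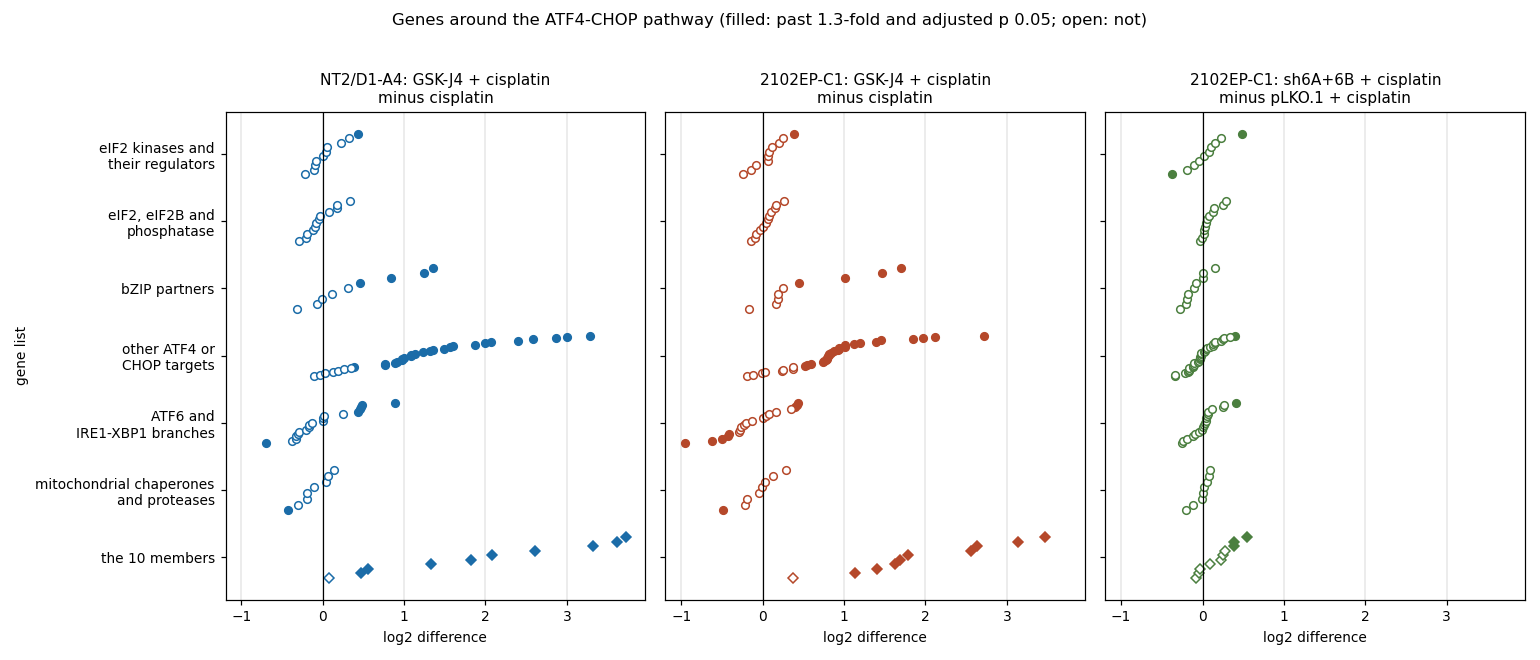
Each point is the log2 difference (horizontal axis) of a gene of a list (vertical axis) under cisplatin, for GSK-J4 in NT2/D1-A4, GSK-J4 in 2102EP-C1, and sh6A+6B in 2102EP-C1, with filled points past the limits of 1.3-fold and adjusted p 0.05 and diamonds for the members. Further ATF4 or CHOP targets lie mostly to the right of 0 with GSK-J4 and on both sides of 0 with sh6A+6B.

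The 10 members did not follow each other equally closely over the 36 libraries. With values centered within each experiment, a member's correlation with the mean of the other 9 ran from 0.71 (ATF5) and 0.80 (ASNS) to 0.99 (DDIT3), as a description without a test, since libraries of an arm share their treatment. Other genes were ranked if they were measured in every experiment and were not low in any of them. Among these 12757 other genes, the 5 closest to the members were MAL2 (0.987), MTHFD2 (0.985), SLC38A1 (0.984), DDR2 (0.9803), and WARS1 (0.979). MTHFD2, of mitochondrial folate metabolism, and WARS1, the tryptophan tRNA synthetase, are also among the further targets. The 5 genes were picked for following the members over the same libraries, those with GSK-J4 included. A rise with GSK-J4 was thus built into the choice, and the values are a description. With GSK-J4 under cisplatin, MTHFD2 was higher by 0.98 in NT2/D1-A4 and 1.19 in 2102EP-C1, and the glutamine transporter gene SLC38A1 by 1.36 and 1.68. MAL2, a gene of membrane traffic, was higher by 1.61 and 1.52, and the collagen receptor gene DDR2 by 3.93 and 3.67.

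Markers of cell state moved in the same libraries, and also with cisplatin alone and with knockdown. The summed level of the 10 embryonal carcinoma markers was 7434 to 7744 CPM with cisplatin and 5798 to 6322 CPM with the combination in NT2/D1-A4, and 11280 to 11470 against 9200 to 9764 CPM in 2102EP-C1. Under limma 1 of the 10 fell in NT2/D1-A4 (DNMT3B, -0.78) and 1 rose (TDGF1, 0.84), while in 2102EP-C1 DNMT3B (-0.62) and GDF3 (-0.73) fell. The sum weights abundant genes such as DNMT3B most. By direction alone, 8 of the 10 were lower and 2 higher in each line. POU5F1 was among the higher ones, with means of 8.97 and 9.08 log2 CPM in NT2/D1-A4 and 9.42 and 9.47 in 2102EP-C1 (cisplatin and combination). The embryonal carcinoma sum was also lower with cisplatin than in control libraries, which had 7990 to 8159 CPM in NT2/D1-A4 and 11870 to 12140 CPM in 2102EP-C1. In sh6A+6B cells without cisplatin it was 10740 to 10830 CPM, against 11380 to 11440 CPM in pLKO.1 cells. The summed level of the measured markers of other lineages was 13.36 to 14.08 CPM with cisplatin and 17.32 to 18.49 CPM with the combination in NT2/D1-A4. In 2102EP-C1 it was 28.58 to 29.74 against 32.97 to 37.50 CPM. Control libraries were lower still, at 10.88 to 12.69 and 22.94 to 24.75 CPM. In sh6A+6B cells without cisplatin the sum was 21.19 to 22.81 CPM, against 24.71 to 25.58 CPM in pLKO.1 cells. Under GSK-J4 with cisplatin, GATA4 and GATA3 rose in both lines. By direction alone, 4 of 6 measured markers were higher and 2 lower in NT2/D1-A4. In 2102EP-C1, 4 of 5 were higher and 1 lower. AFP had 2 to 6 reads with cisplatin and 13 to 22 with the combination in NT2/D1-A4, and 1 to 3 against 12 to 18 in 2102EP-C1. AFP was listed in both tables only through the GSK-J4 arms, so it had to be higher with GSK-J4 to be listed. The same held for PAX6 in NT2/D1-A4, with 2 to 6 reads in control and 6 to 10 reads in cisplatin libraries. Both genes are part of the sums there. The part of these shifts in the values of the members was not tested. In bulk RNA, fewer cells of a kind and less RNA per cell cannot be told apart.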

How the data were processed

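RNA-seq of 36 libraries was analysed, with 3 libraries in each of 4 arms of 3 experiments. According to the methods and processing notes, the authors used Trimmomatic for trimming, STAR for alignment to GRCh38.p14, featureCounts for counting, a minimum of 0.5 CPM in 2 or more samples, TMM scaling, and limma. Versions are not given in the sources used here. The deposited values are log2 CPM with a prior count of 3, and reads recovered from them were whole (within 0.05) for 100% of values under 50 reads. These reads gave the depth. No replicates were duplicates (chi-square per degree of freedom at least 1.672).

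Each table was fitted in limma 3.58.1 (R 4.3.3) with group means, an intensity trend, and no block over its 12 libraries. Tests were two-sided, with Benjamini-Hochberg adjustment over all genes, and a gene was called past a fold of 1.3 and an adjusted p of 0.05. The tables were normalized separately, so no test was made between them. The members and lists were chosen with earlier results of these data known. All members were named, with up to 4 genes per list that had the largest summed change with GSK-J4 under cisplatin over both lines, any gene needed to identify a count of 5 or fewer, and the 5 nearest genes. The 6 lists were eIF2 kinases and regulators, eIF2 with eIF2B and phosphatase, bZIP partners, further ATF4 or CHOP targets, the ATF6 and IRE1-XBP1 branches, and mitochondrial chaperones and proteases. Alternatives were voom, no TMM factor, a prior count of 0.5, a mean log2 CPM over 1, the compared groups only, a replicate block, and leaving out each library. The code was tested on simulated data. Figures were drawn in Python with matplotlib. Raw reads were not used here.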

Additional observations from a re-analysis of the deposited data

Results flagged for a closer look

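DDIT3 was singled out because cisplatin, added to GSK-J4, moved it in opposite directions in the lines, with no overlap between the groups in either. In NT2/D1-A4 the difference between the combination and GSK-J4 was -0.2586 on the log2 scale, from 3.92, 3.86, and 3.83 to 3.52, 3.58, and 3.74 log2 CPM. In 2102EP-C1 it was 0.2812, from 4.63, 4.60, and 4.48 to 5.07, 4.81, and 4.66 log2 CPM. By direction alone, 8 of the 10 members were lower in NT2/D1-A4 in this comparison and all 10 were higher in 2102EP-C1. The difference between the lines was not tested, and both DDIT3 values are under the fold limit of 1.3.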

How the results depend on the processing

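Of 90 fitted differences of single members, 12 changed sides of the limits under at least 1 alternative and 0 changed sign while called. Of the others, 57 kept their side under every alternative, and 21 kept it under those that gave a value, since the filter on low values removed the gene. The 90 include INHBE in NT2/D1-A4 and ASNS in 2102EP-C1 with GSK-J4 under cisplatin, which are given above without a test. These 2 are also in the counts of 9 that follow. The counts of 9 members with GSK-J4 under cisplatin were 9 to 10 in all alternatives but the filter on low values, which gave 7 in NT2/D1-A4 and 6 in 2102EP-C1. With the replicate number as a block the counts were 9, 9, 1, 1, 3, 3, 3, 2, and 0, as without it. The numbers did not pair the samples over all arms. Same-numbered libraries correlated at -0.1827 to 0.2772 in NT2/D1-A4, -0.125 to 0.1002 in 2102EP-C1 with GSK-J4, and -0.1672 to 0.3132 in the knockdown experiment. Of 18 pairs in each, 3, 1, and 5 were over 0.1. Between cisplatin and combination in NT2/D1-A4 they correlated at 0.1926, 0.05264, and 0.2772. Between sh6A+6B without and with cisplatin the values were 0.3132, 0.3123, and 0.08839. Pairing of only these arms was not tested. The single calls with cisplatin alone went to 0 with voom and 0 with only the compared groups in both lines, and leaving out single libraries gave 0 to 2 in NT2/D1-A4 and 0 to 1 in 2102EP-C1. Leaving out single libraries gave 1 to 3 with sh6A+6B and 0 to 3 with sh6A+6B under cisplatin. Keeping only genes with a mean log2 CPM over 1 removes low members by construction. It left 0 called members with cisplatin alone in 2102EP-C1, 0 with cisplatin in pLKO.1 cells, 0 with cisplatin in sh6A+6B cells, and 0 with sh6A+6B with or without cisplatin. It also moved the median of the members between combination and control in 2102EP-C1 from 1.86 to 1.704, and that between sh6A+6B with cisplatin and untreated pLKO.1 from -0.06621 to 0.04924. The same filter changed the number of all genes called from 3396 to 2185 with GSK-J4 under cisplatin in NT2/D1-A4, 493 to 186 with cisplatin in pLKO.1 cells, 1989 to 1046 with sh6A+6B, 2497 to 1457 with sh6A+6B under cisplatin, and 579 to 216 with cisplatin in sh6A+6B cells. With cisplatin alone in 2102EP-C1 it was 182, 118 without control replicate 1, and 117 without cisplatin replicate 2. ASNS with cisplatin in sh6A+6B cells was called without replicate 1 of the treated libraries (-0.6441, adjusted p = 0.016). Depth limited the precision of genes with few reads: the SE with GSK-J4 under cisplatin was largest for ASNS among the members in both lines, and NUPR1, INHBE, and ASNS had fewer than 40 reads in the control and cisplatin libraries of the GSK-J4 experiments.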

Other observations

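INHBE stood at different levels in the untreated arms of the same clone. It had -0.37 to -0.21 log2 CPM in the 2102EP-C1 control libraries of the GSK-J4 experiment and 0.91 to 1.15 log2 CPM in the pLKO.1 libraries. DDIT3 was at 2.20 to 2.30 and 2.83 to 2.94, and TRIB3 at 3.64 to 3.67 and 4.096 to 4.21 in the same libraries. The tables were normalized separately and the experiments differ in vector and depth, so these differences were not tested.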
